A study of Rattus norvegicus with 6 samples.

Results

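The miR-378 family was followed in rat myocardium after myocardial infarction (MI) through every miRNA listed on the array under a name starting with miR-378, with any letter and arm. These were rno-miR-378a-5p and rno-miR-378b, written below without the prefix of the species, 2 of the 758 miRNAs listed, read by 4 of 1806 probes. The opposite arm, rno-miR-378a-3p, was not analysed here. The members were found by name, with earlier results of these data known.

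The control group was 3 male Sprague-Dawley rats with a sham operation, in which the suture was passed under the left anterior descending coronary artery and not tied. The model group was 3 rats of the same sex and strain in which that artery was ligated. Myocardium was taken 4 weeks after surgery from both groups, in the model group from the marginal zone of the infarct, and total RNA of each rat was labelled with the dye Cy3 and hybridised to 1 Agilent Rat miRNA array. The zone of the control tissue is not given in the sources used here, so zone and operation cannot be told apart. The tissue was whole myocardium, so fewer cells of a type and less of an RNA per cell cannot be told apart.

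The precursor of miR-378a lies inside Ppargc1b, the gene of PGC-1beta, a transcriptional coactivator that drives mitochondrial and oxidative genes. A miRNA in such a host gene can be made from the host's transcript. The arm miR-378a-5p is known to repress ERRgamma and GABPA, transcription factors of mitochondrial genes. The arm miR-378a-3p is known to repress carnitine O-acetyltransferase in energy metabolism, and IGF1R and caspase-3 in cardiomyocytes. As a whole, miR-378a is known to be abundant in heart and skeletal muscle. miR-378b, whose sequence is known to be nearly that of miR-378a-3p, has its precursor inside Ncoa2 on another chromosome in the RefSeq annotation of rat assembly GRCr8. Ncoa2 encodes a nuclear receptor coactivator. Whether the miR-378b probes also bind miR-378a-3p was not tested.

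The mature sequences below are from the RefSeq table of GRCr8, 5′ to 3′, with the seed (bases 2 to 8, which pair with target mRNAs) in capitals. The arms of miR-378a are shown because their seeds differ and so select different targets, and those of miR-3557 because they come from the opposite strand of the same locus.
miR-378a-5p: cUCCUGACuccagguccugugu
miR-378a-3p: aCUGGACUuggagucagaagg
miR-3557-3p: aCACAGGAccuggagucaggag
miR-3557-5p: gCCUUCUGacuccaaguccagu

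The measured arm, miR-378a-5p, has 22 bases, of which 59.1% are G or C. Of the 758 miRNAs listed on the array, 685 had a sequence in the table, and miR-378b was not among them. None of the others among these 685 shared the seed of miR-378a-5p or that of miR-378a-3p. When the arms of miR-378a were laid antiparallel, as in a hairpin, the longest unbroken paired run held 14 bases, with G-U pairs counted.

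Mir3557 spans the miR-378a precursor in the annotation, and its mature sequences are those of the other strand. Over all 22 bases, miR-3557-3p is the exact reverse complement of miR-378a-5p. In the same way, miR-3557-5p covers all 21 bases of miR-378a-3p with a run of 21 complementary bases. These miRNAs were singled out after their values were seen. Neither was detected: a probe was taken as detected when its signal was over 3 times its error, and 0 of 12 values of the miR-3557-3p probes and 0 of 12 of the miR-3557-5p probes passed on the 6 arrays. The ratio of signal to error ran from -0.41 to 0.652 for miR-3557-3p and from -0.55 to 1.06 for miR-3557-5p. The probes for the opposite strand were thus below the detection limit in both groups, where those for miR-378a-5p were above it on every array.

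All 4 miR-378 probes were detected on all 6 arrays. Each probe was printed in 8 spots per array, and on every array all 8 were well above background and none was saturated. The probe signal was 8.87 to 9.99 times its error, and the coefficient of variation over the spots of a probe was 1.73% to 16.3%. The spread between spots is technical, and the tests below used the spread between rats.

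For miR-378a-5p, the summed signal of its probes, background-subtracted and before any scaling between arrays, was 62.0, 72.6 and 57.9 in control rats and 51.8, 45.5 and 46.2 in model rats. The highest model array lay below the lowest control array. For miR-378b the summed signal was 265.9, 318.7 and 275.0 in control rats and 252.1, 192.9 and 216.5 in model rats. The groups did not overlap here either, although model array 1 came close to control array 1. Without scaling, 15 of 214 miRNAs tested, 7.01%, had all model arrays below all control arrays, and both members were among them.

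**Figure D1:**
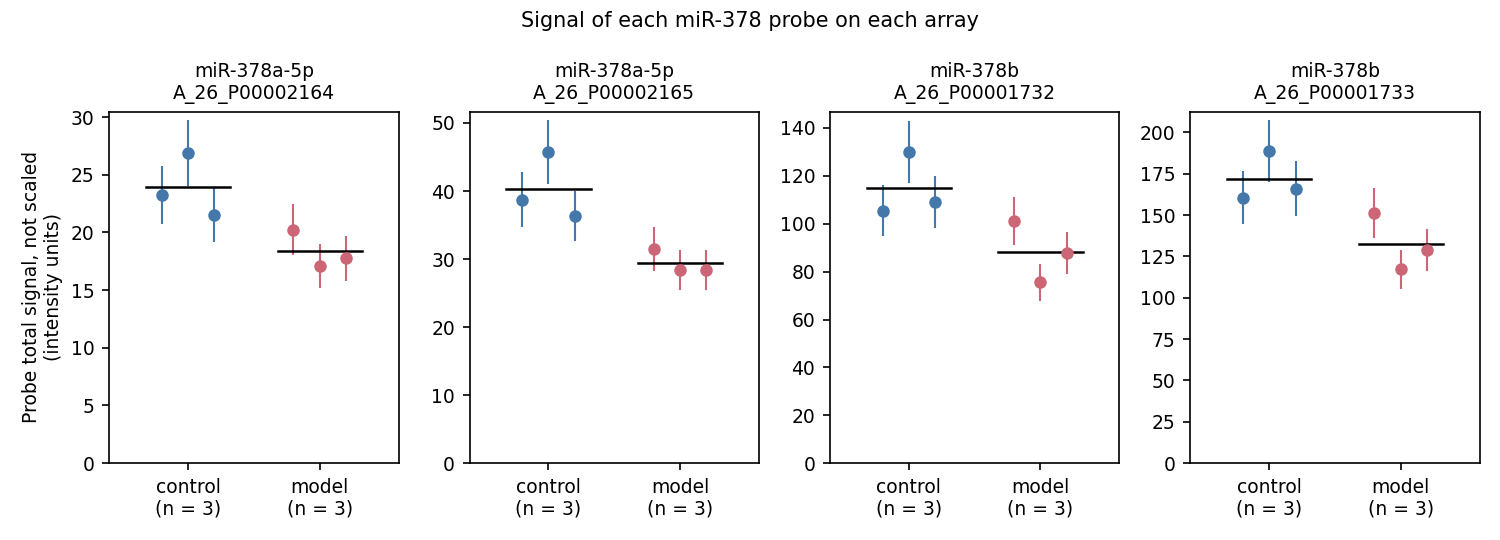
Signal of each of the 4 probes on each array, in unscaled intensity units with an axis from 0, for 3 control arrays (blue) and 3 model arrays (red). Error bars are the scanner software's error of the probe signal and black lines are group means. In each panel the highest model array lies below the lowest control array, with overlapping error bars where the gap is narrow.

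The probes of each member gave the same picture. Probe A_26_P00002164 of miR-378a-5p read 23.3, 26.9 and 21.5 in control rats and 20.2, 17.1 and 17.7 in the model group. The other probe of this arm, A_26_P00002165, read 38.7, 45.8 and 36.3 against 31.5, 28.4 and 28.4. On both probes the model arrays were the 3 lowest.

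For miR-378b, probe A_26_P00001732 read 105.4, 130.1 and 109.1 in control rats and 101.1, 75.5 and 87.7 in the model group. Probe A_26_P00001733 read 160.5, 188.6 and 165.9 against 151.0, 117.3 and 128.8. Again no model array reached the lowest control array, and model array 2 was the lowest of all on both. The share of all probes without overlap was not counted. The probe signals make up the sums above and are not separate evidence.

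The arrays differed in overall signal, so signals were expressed relative to a scaling value of each array, the 75th percentile over the 198 miRNAs that every array detected. It was 145.0, 189.1 and 145.5 in control rats and 203.2, 192.9 and 168.3 in model rats. On this scaled log2 scale, miR-378a-5p was at -1.23, -1.38 and -1.33 in control rats and at -1.97, -2.08 and -1.87 in the model group. The means were -1.31 ± 0.079 and -1.97 ± 0.11 (SD, n = 3 each). The gap between the groups was wider than the range within either group.

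Compared with the control group, miR-378a-5p was lower after MI. The log2 fold change was -0.66 (SE 0.090, 95% interval -0.88 to -0.44, limma adjusted p = 0.00626). This was 0.632 times the control level. In the same fit 49 of 214 miRNAs, 22.9%, differed in either direction at an adjusted p under 0.05, of which 27, 12.6%, were lower and 22, 10.3%, were higher. The call of miR-378a-5p was lost with the totals as deposited (log2 fold change -0.32, adjusted p = 0.0574 by limma), without scaling (-0.42, adjusted p = 0.265 by limma), without the detection filter (-0.66, adjusted p = 0.0590 by limma) and without control replicate 1 (-0.64, adjusted p = 0.0530 by limma).

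For miR-378b, the scaled log2 signal was 0.87, 0.75 and 0.92 in control rats and 0.31, 0.00017 and 0.36 in the model group. The means were 0.85 ± 0.085 and 0.23 ± 0.20 (SD, n = 3 each), and model array 2 was the lowest. The spread in the model group was larger than that of miR-378a-5p, and the groups did not overlap. Over all miRNAs tested, 66 of 214, 30.8%, had all model arrays below all control arrays on this scale and 35, 16.4%, had them all above.

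miR-378b was also lower after MI. The log2 fold change was -0.62 (SE 0.12, 95% interval -0.92 to -0.33, limma adjusted p = 0.0178), or 0.649 times the control level. This call was less firm: it was lost under 10 of 22 alternatives, among them the totals as deposited (-0.28, adjusted p = 0.132 by limma), no scaling (-0.38, adjusted p = 0.290 by limma), quantile normalization (-0.49, adjusted p = 0.177 by limma), the authors' normalized values (-0.50, adjusted p = 0.173 by limma) and leaving out control replicate 1 (-0.64, adjusted p = 0.0772 by limma) or control replicate 3 (-0.60, adjusted p = 0.0609 by limma). For a single miRNA, an exact permutation test of 3 arrays against 3, two-sided, gave p = 0.10 for each member, the smallest value this design allows.

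When probes were fitted in place of miRNAs, all 4 were lower, beside 59 of 394 probes tested, 15.0%. The log2 fold changes were -0.62 (SE 0.11, limma adjusted p = 0.00797) and -0.69 (SE 0.10, limma adjusted p = 0.00353) for the miR-378a-5p probes. They were -0.63 (SE 0.13, limma adjusted p = 0.0133) and -0.62 (SE 0.12, limma adjusted p = 0.0117) for the miR-378b probes. Probes of 1 miRNA read the same RNA of the same rats and are not further replicates.

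Among the 214 miRNAs ordered by log2 fold change, miR-378a-5p was number 15 and miR-378b number 17 from the lowest. The median log2 fold change was -0.14 over all miRNAs tested and -0.15 over those detected on all 6 arrays. Relative to the latter median, the members were lower by a log2 difference of -0.51 and -0.48.

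**Figure D2:**
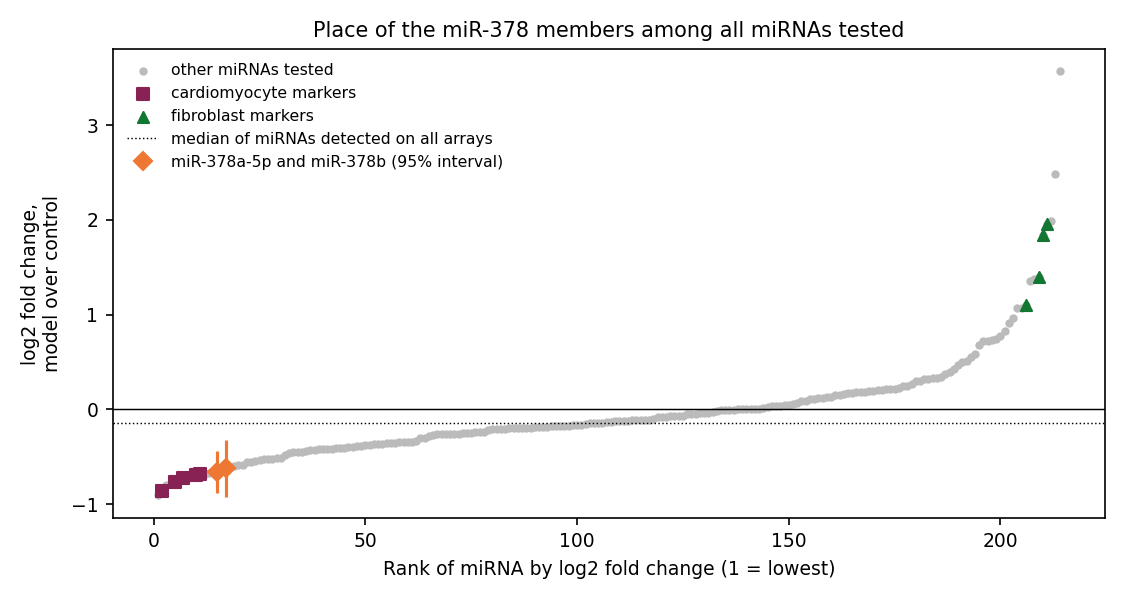
Log2 fold change, model over control, of the 214 miRNAs tested, ordered from lowest to highest. Orange diamonds with 95% intervals are miR-378a-5p and miR-378b (ranks 15 and 17), squares are the 5 cardiomyocyte markers tested, triangles the 4 fibroblast markers, and the dotted line is the median (-0.15) over the miRNAs that every array detected.

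The position of the arrays on the slide moved with the groups in part. The 3 control arrays and model array 1 lay in row 1 and model arrays 2 and 3 in row 2. Row 2 held no control array, so a value within a row came from model array 1 alone, which differed from the mean of the 3 controls by a log2 of -0.66 for miR-378a-5p and -0.54 for miR-378b. For miR-378a-5p it lay below all 3 controls under each of the 7 scalings compared. For miR-378b it did so except with quantile normalization and with the authors' normalized values, where it equalled the lowest control. A fit with the row as a block gave these same 2 differences, with model arrays 2 and 3 adding to the estimate of the spread and not to the difference (limma adjusted p = 0.0421 for miR-378a-5p and 0.119 for miR-378b). It rests on 1 model array and adds no support of its own.

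The members were then compared with each other within each array, a difference that needs no scaling. The log2 signal of miR-378b minus that of miR-378a-5p was 2.10, 2.13 and 2.25 in control rats and 2.28, 2.08 and 2.23 in the model group. The groups overlapped. The mean difference was 2.16 ± 0.078 in control rats and 2.20 ± 0.10 in the model group (SD, n = 3 each), a change of 0.038 (exact permutation test, two-sided, p = 0.80). A change of the members relative to each other was not detectable with 3 arrays per group. The offset itself is a property of different probes and is not a ratio of miRNA amounts.

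Over the 6 arrays, the scaled log2 signal of miR-378a-5p was most like those of miR-486 (Pearson r = 0.979), miR-125a-3p (r = 0.978) and miR-378b (r = 0.974) among 197 other miRNAs detected on all arrays. For miR-378b the order was miR-486 (r = 0.981), miR-378a-5p (r = 0.974) and miR-208a-5p (r = 0.969). These values describe 6 points that share the control and model groups and the scaling factors, so any miRNA that is lower in the model group with little spread scores high. miR-486 is an erythroid and muscle miRNA made inside Ank1. miR-208a-5p comes from the precursor of miR-208a, which lies in the cardiac myosin gene Myh6.

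The seeds of miR-125a-3p and miR-208a-5p are unlike those of miR-378a, as their sequences from the same RefSeq table show with bases 2 to 8 in capitals. miR-486, listed under a name without an arm, was not compared here.
miR-125a-3p: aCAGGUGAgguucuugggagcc
miR-208a-5p: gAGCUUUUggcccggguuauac

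The scaled log2 signal of miR-486 was 0.47, 0.48 and 0.52 in control rats and -0.20, -0.38 and 0.015 in the model group. Its log2 fold change was -0.68 (limma adjusted p = 0.0132), close to those of the members. For miR-208a-5p the scaled log2 signal was -2.98, -2.95 and -2.88 against -3.74, -4.37 and -3.43, a log2 fold change of -0.91 (limma adjusted p = 0.0441). Model array 2 was the lowest for both, as it was for both members. These miRNAs were picked by their correlation with the members, so a shared order of arrays is no further finding.

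miR-125a-3p followed the same order of groups with a smaller step, from -3.72, -3.76 and -3.75 in the control group to -3.94, -3.98 and -3.97 in the model group. Its log2 fold change of -0.22 had a limma adjusted p of 0.0593 and did not pass.

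**Figure D3:**
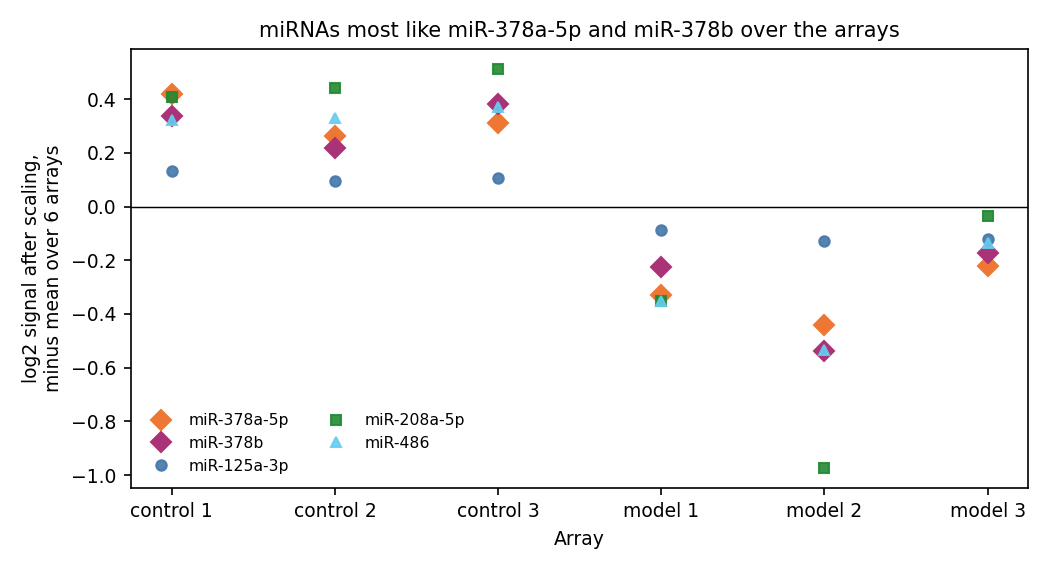
Scaled log2 signal of miR-378a-5p, miR-378b and the miRNAs most like them on each of the 6 arrays, each as the difference from its own mean over the arrays. All 5 lie above 0 in control rats and below 0 in model rats, and model array 2 is the lowest for each, with miR-208a-5p lowest of all.

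Other miRNAs that lie in genes of lipid or energy metabolism were compared next. miR-103-3p and miR-107-3p come from introns of pantothenate kinase genes, which make coenzyme A, and miR-33 from an intron of Srebf2, a regulator of cholesterol synthesis. Of 7 such miRNAs on the array, 2 were tested and 0 were called, beside 22.9% of all miRNAs tested, so that a count of 0 of 2 says little. They had a median log2 fold change of -0.15 beside -0.14 over all miRNAs tested. miR-107-3p had a log2 fold change of -0.34 (limma adjusted p = 0.0676) and miR-103-3p of 0.048 (limma adjusted p = 0.680). The other 5, both arms of miR-33 among them, were not detected on any array.

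Of 5 metabolic miRNAs of other loci, 2 were tested and 0 were called, again too few to set against 22.9%. miR-34a-5p had a log2 fold change of 0.12 (limma adjusted p = 0.352) and miR-143-3p of -0.17 (limma adjusted p = 0.365). The liver miRNA miR-122-5p, the islet miRNA miR-375-3p and miR-370-3p were not detected. Both these lists had a median (-0.15 and -0.023) above the log2 fold changes of the miR-378 members. Whether the members differ from the lists was not tested.

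Markers of some cell types moved with the groups. Of the 6 cardiomyocyte markers 4 were detected on all 6 arrays, as fits the labelled tissue, and 3 of the 5 tested were lower in the model group, beside 12.6% of all miRNAs tested. These were miR-1-3p (log2 fold change -0.76), miR-133a-3p (-0.68) and miR-133b-3p (-0.72), with limma adjusted p = 0.0203, 0.0297 and 0.0268. miR-208a-3p (-0.87, adjusted p = 0.0988) and miR-499-5p (-0.69, adjusted p = 0.0929) did not pass in limma. miR-208a-3p was detected on 5 of 6 arrays and enters at the floor on model array 2, and miR-208b-3p was not detected.

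The median log2 fold change of the cardiomyocyte list was -0.72, and all 5 log2 fold changes were below 0. The 3 calls were not firm, and 0 remained under several settings. Among these were the totals as deposited (median -0.38), no scaling (median -0.48), no detection filter, the methods' t-test and the replicate number as a block. The same held when control replicate 1, 2 or 3 or model replicate 1 was left out (medians -0.79, -0.64, -0.84 and -0.81). Its summed scaled signal was 114.3 to 137.7 in control rats and 60.9 to 85.1 in model rats. The fold changes of the miR-378 members, -0.66 and -0.62, were of similar size.

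The log2 signal of miR-378a-5p minus the mean of the 4 cardiomyocyte markers detected on all arrays was -4.19, -4.65 and -4.27 in control rats and -4.43, -4.14 and -4.38 in the model group. The groups overlapped, and the difference of means was 0.053 (exact permutation test, two-sided, p = 0.80). For miR-378b the values were -2.09, -2.51 and -2.02 against -2.15, -2.05 and -2.15, with a difference of 0.091 (exact permutation test, two-sided, p = 0.90). Relative to the cardiomyocyte markers, no difference between the groups was detectable for either member. With 3 arrays against 3 this test cannot give a p under 0.10, so that a difference is not excluded. The sign of the difference changed when control replicate 2 was left out (-0.086 and -0.061) or with the authors' normalized values (-0.19 and -0.076).

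The markers of other cell types were measured on the same scale. The 4 fibroblast markers were miR-199a-5p, miR-199a-3p, miR-214-3p and miR-21-5p, of which the miR-199a arms share a precursor and are not independent. All 4 were higher in the model group at a limma adjusted p under 0.05, beside 10.3% of all miRNAs tested. Their log2 fold changes reached 1.95 (median 1.62). The paper lists all 4 among the miRNAs it found raised on these same arrays, so their rise is not a separate finding. The summed scaled signal of these markers was 3.85 to 4.74 in control rats and 10.2 to 14.4 in the model group. Without the detection filter, 2 of the 4 fibroblast calls remained. Both endothelial markers, which are arms of miR-126a and so not independent, were lower, beside 12.6% of all miRNAs tested. miR-126a-3p had a log2 fold change of -0.49 and miR-126a-5p of -0.59 (limma adjusted p = 0.0154 and 0.0132). Their sum was 8.16 to 9.17 against 5.98 to 6.66. Both endothelial calls were lost with the totals as deposited, without scaling, without the detection filter, with the replicate number as a block and without control replicate 1. Of these calls, 1 was lost with the total of detected signals and without control replicate 2. Of the leukocyte markers 4 of 5 were tested. miR-155-5p was higher (1.07), miR-150-5p was lower (-0.60), miR-142-3p (-0.073, limma adjusted p = 0.861) and miR-223-3p (0.15, limma adjusted p = 0.377) did not pass, and miR-142-5p was not detected. The median of this list was 0.037. Its sum was 2.11 to 2.39 against 1.52 to 1.85, and 0.420 to 0.512 against 0.434 to 0.604 without miR-150-5p. Neither leukocyte call remained with the totals as deposited, without the detection filter, with the replicate number as a block or without control replicate 1. Among other settings, the miR-150-5p call was also lost without scaling, with quantile normalization and with the authors' normalized values. Of the red blood cell markers miR-486 was lower, miR-451-5p had a log2 fold change of -0.53 (limma adjusted p = 0.132), miR-144-3p was not detected, and the sum was 1.79 to 2.10 against 1.13 to 1.43. The miR-486 call was lost with the totals as deposited, without scaling, without the detection filter and without control replicate 1. It was also lost with the replicate number as a block and with the authors' normalized values. The part of cell composition in the lower miR-378 signal was not tested.

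The size of the change depended on the scaling, and its direction did not. Under 22 alternative settings the log2 fold change of miR-378a-5p ran from -0.79 to -0.32 and had an adjusted p under 0.05 in 18. For miR-378b it ran from -0.75 to -0.28 and had an adjusted p under 0.05 in 12. In each of these settings both members were lower in the model group.

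**Figure D4:**
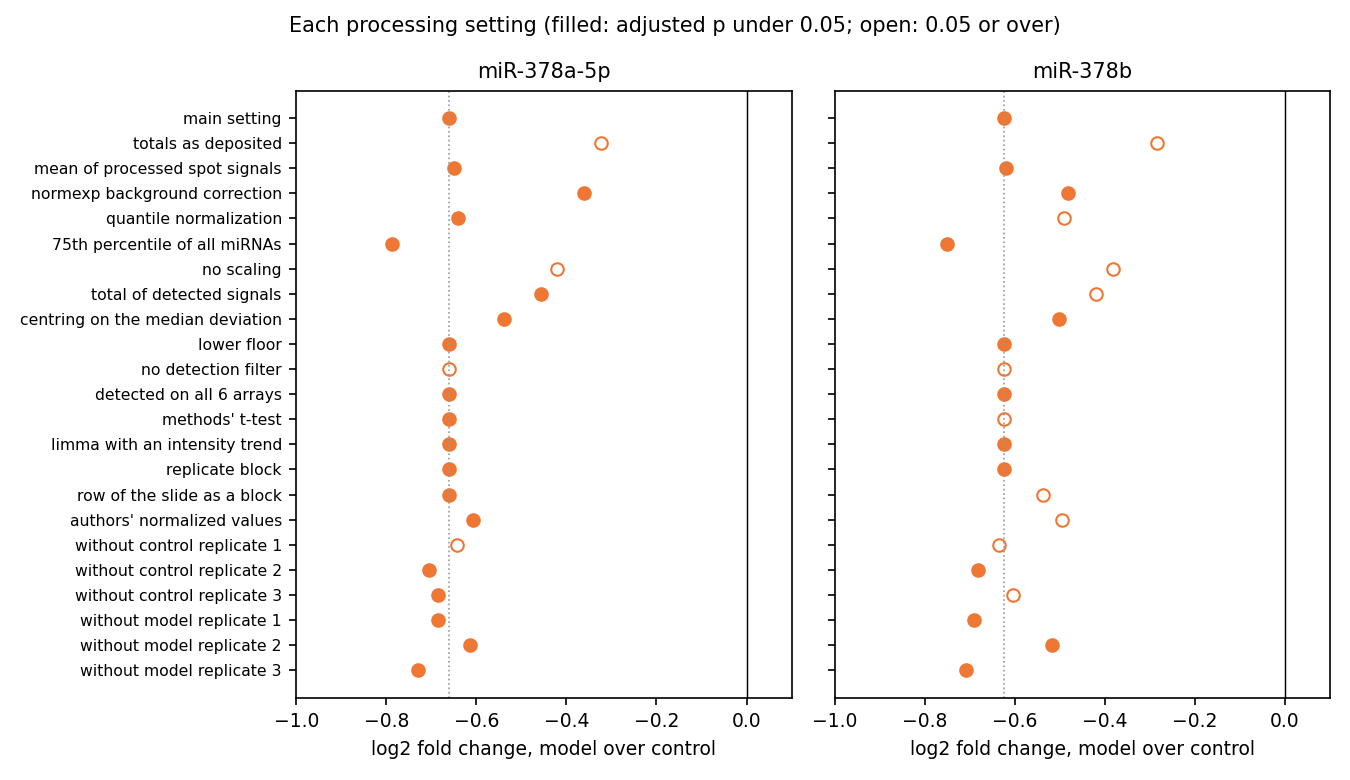
Log2 fold change, model over control, of miR-378a-5p and miR-378b under the main setting (dotted line) and each of 22 alternatives. Filled points have an adjusted p under 0.05 and open points do not. All points lie left of 0, with those nearest to 0 for the totals as deposited (-0.32 and -0.28).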

How the data were processed

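The authors deposited, per the file headers, intensity values of Agilent Feature Extraction 10.7.1.1, background-subtracted and not scaled between arrays, and log2 values of the same arrays whose normalization method is not given in the sources used here. Those log2 columns had medians of -3.22, -3.30 and -3.25 (control) and -3.31, -3.31 and -3.31 (model) and correlated with log2 of the probe sums at 0.996 to 0.999, with slopes of 0.981 to 1.03; their centring stays unknown. They served as an alternative.

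Probe signals over 3 times their error were summed per miRNA, divided by the array's 75th percentile over 198 miRNAs detected on all 6 arrays, floored at a log2 of -6.50 and log2-transformed. For the miR-378 members the sums equalled the deposited totals within a relative difference of 3.64e-06. A miRNA was kept if all arrays of the control or the model group detected it, which left 214. Groups were compared by limma 3.58.1 under R 4.3.3, with Benjamini-Hochberg adjustment over all 214. Between 27.2% and 29.3% of miRNAs were detected per array, and 3 arrays per group limit the precision. The fit was tested on simulated data with changes larger than those of the miR-378 members, so that test does not bear on calls of their size. Python 3.11.15 with pandas 2.3.3 was used for reading.

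The members and lists were chosen with earlier results of these data known. Named miRNAs were the members, miRNAs sharing a seed, the lists and the 3 most correlated with each member. The planned comparison of miR-378a-3p with miR-378a-5p was replaced by miR-378b with miR-378a-5p. Alternatives were other scalings, background corrections, floors, filters, tests and blocks, and leaving out each array.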

Additional observations from a re-analysis of the deposited data

How the results depend on the processing

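Both members were lower in the model group under all 22 alternatives. For miR-378a-5p the limma call was lost with the totals as deposited (-0.32, adjusted p = 0.0574), without scaling (-0.42), without the detection filter (-0.66, adjusted p = 0.0590) and without control replicate 1 (leave-one-out range -0.73 to -0.61). For miR-378b it was lost with the totals as deposited (-0.28), quantile normalization (-0.49), no scaling (-0.38), the total of detected signals (-0.42), no detection filter (-0.62), the methods' t-test (-0.62, adjusted p = 0.0503), the slide row as a block (-0.54, from model array 1 alone), the authors' values (-0.50) and without control replicate 1 or 3 (range -0.71 to -0.52). With the totals as deposited, the members' own totals were unchanged and the scaling values differed. The cause of the other losses was not tested.

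All 4 probe calls were lost without scaling: -0.39 (A_26_P00001732), -0.38 (A_26_P00001733), -0.38 (A_26_P00002164) and -0.45 (A_26_P00002165). With 1 array left out, the first, which also lost its call without control replicate 1 or 3, ran from -0.72 to -0.51.

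The difference between the members was reversed without model replicate 1 (leave-one-out range -0.0042 to 0.096). Relative to cardiomyocyte markers, miR-378a-5p was reversed with the authors' values (-0.19, exact permutation p = 0.20), without control replicate 2 (-0.086) and without model replicate 2 (-0.037), up to 0.14. miR-378b was reversed with the authors' values (-0.076) and without control replicate 2 (-0.061), up to 0.18.

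The count of 49 called became 19 without scaling, 9 without the filter, 26 with the methods' t-test, 29 with the row block, and 14 to 39 with 1 array left out (14, 26 and 27 without control replicates 1, 2 and 3). The split of 22 higher and 27 lower became 35 and 1 with the totals as deposited, 19 and 0 without scaling, 34 and 11 with the total of detected signals, 30 and 16 with centring, 23 and 16 with quantile normalization, 19 and 47 with the percentile of all miRNAs, and 23 and 14 with the authors' values. Median log2 fold changes of miRNAs detected on all arrays were -0.27 to 0.15.

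Samples shared only a replicate number: deviations of same-numbered samples correlated at -0.26, 0.0011 and 0.16. With the replicate block both members kept their calls (limma adjusted p = 0.0433 for miR-378a-5p and 0.0470 for miR-378b), and 16 miRNAs were called. A planned block for slide or scan time was left out, since all arrays shared 1 of each.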
